A study of Rattus norvegicus with 8 samples.

Results

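The Rab proteins are small GTPases that sit on the membranes of the secretory and endocytic pathways and cycle between a GTP-bound form, which recruits effectors such as tethers and motors, and a GDP-bound form that is extracted into the cytosol. Exchange factors load GTP, GTPase-activating proteins end the signal, and GDP dissociation inhibitors keep the lipid-anchored protein soluble between rounds. Each Rab marks one or a few compartments, and in neurons they direct synaptic vesicle release, dendritic receptor recycling and axonal transport. The genes described here were found by name: every probe on the array, other than controls, whose gene name began with Rab followed by a digit. This rule took 48 of the 11564 genes on the array that could be named, read by 65 of its 15207 probes. Of these, 59 probes belonged to 43 Rab GTPase genes, and 6 probes belonged to 5 genes named after a Rab but encoding a regulator or partner, which are described apart.

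The samples were whole hippocampi of rats aged 2 months, 4 control and 4 PNFLX (postnatal fluoxetine). PNFLX pups had been given 10 mg/kg of fluoxetine, an antidepressant that blocks serotonin reuptake, and control pups the vehicle, sucrose in water at 5%, from postnatal day 2 to day 21 in the treatment protocol. The description fields disagree on the last day, naming days 21 to 24 for the controls and days 25 to 28 for PNFLX, a different day for each sample. The labels name no strain, sex, litter or genotype, and do not say whether a sample pooled animals. Each sample was labelled with Cy3 and hybridised to 1 array of 60-base probes, and each probe had 1 spot. Levels are given as log2 of the processed spot signal relative to the array's own 75th percentile, which lay between 654 and 941 signal units, so a level of 0 equals that percentile and levels of different probes are not comparable with each other. All 8 arrays lay on 1 slide, with the control arrays in one row of the slide and the PNFLX arrays in the other, so slide row and treatment cannot be told apart.

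Several probes of the family lay in stretches that related Rab genes share, and some probe sequences were printed at more than one spot. The first pair below is shown because Rab5a gave the only Rab probe past the threshold and Rab5c was its closest relative among the probes, and the second because Rab3a and Rab3b are the synaptic vesicle pair with the next most similar probes. Capitals mark bases that are identical when the members of a pair are aligned without gaps.
Rab5a: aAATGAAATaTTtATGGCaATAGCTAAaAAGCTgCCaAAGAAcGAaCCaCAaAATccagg
Rab5c: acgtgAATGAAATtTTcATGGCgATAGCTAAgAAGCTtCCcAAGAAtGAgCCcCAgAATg
Rab3a: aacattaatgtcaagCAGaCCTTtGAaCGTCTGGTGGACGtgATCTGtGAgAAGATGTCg
Rab3b: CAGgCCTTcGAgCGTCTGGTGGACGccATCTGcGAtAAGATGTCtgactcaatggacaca
The Rab5a and Rab5c probes matched at 44 of 56 aligned bases and the Rab3a and Rab3b probes at 37 of 45. How far RNA of one gene adds to the signal of the other gene's probe was not tested. In the files' rn4 positions the Rab5a probe spans chr9:1492943-1499629 on the minus strand and the Rab5c probe chr10:89667823-89668316 on the minus strand. Both spans are longer than the probe, as they were for 27 of the 65 probes, so the match is split over the genome. The Rab3a probe lies in one piece at chr16:19190470-19190529 on the minus strand and this Rab3b probe at chr5:130288754-130288813 on the plus strand. Exons and untranslated regions were not annotated here.

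Across the family few probes differed between the groups. Of the 59 Rab GTPase probes, 57 stood well above background on 4 or more of the 8 arrays and were tested. The other 2, both carrying the same Rab25 sequence, were not well above background on any array; Rab25 is the member of the Rab11 group known from epithelia. Of the 57, 1 probe passed an adjusted p of 0.05 (1.75%), a probe of Rab5a that was higher in PNFLX, against 78 of 11600 probes over the whole array (0.672%, with 0.371% higher and 0.302% lower). At an unadjusted p under 0.05 there were 9 Rab probes, 6 higher and 3 lower (15.8%, against 12.5% of all probes). The 4 PNFLX values lay all above or all below the 4 control values in 8 probes, 6 higher and 2 lower (14.0%, against 10.7% of all probes, 4.33% higher and 6.41% lower). The shares at an unadjusted p and without overlap were near those of all probes.

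The Rab GTPase probes had a median log2 difference (PNFLX minus control) of 0.09 and ranged from -0.96 to 2.16, while the median of all probes was -0.03. In sign, 32 of the 57 were higher in PNFLX and 25 lower, but 51 were higher without scaling between arrays and 21 with another background correction (normexp), settings that moved the median of all probes to 0.26 and -0.38. In size, 43 of the 57 differences were under 0.5 on the log2 scale. The plot of all tested probes by compartment shows how the differences and their errors were spread.

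**Figure D1:**
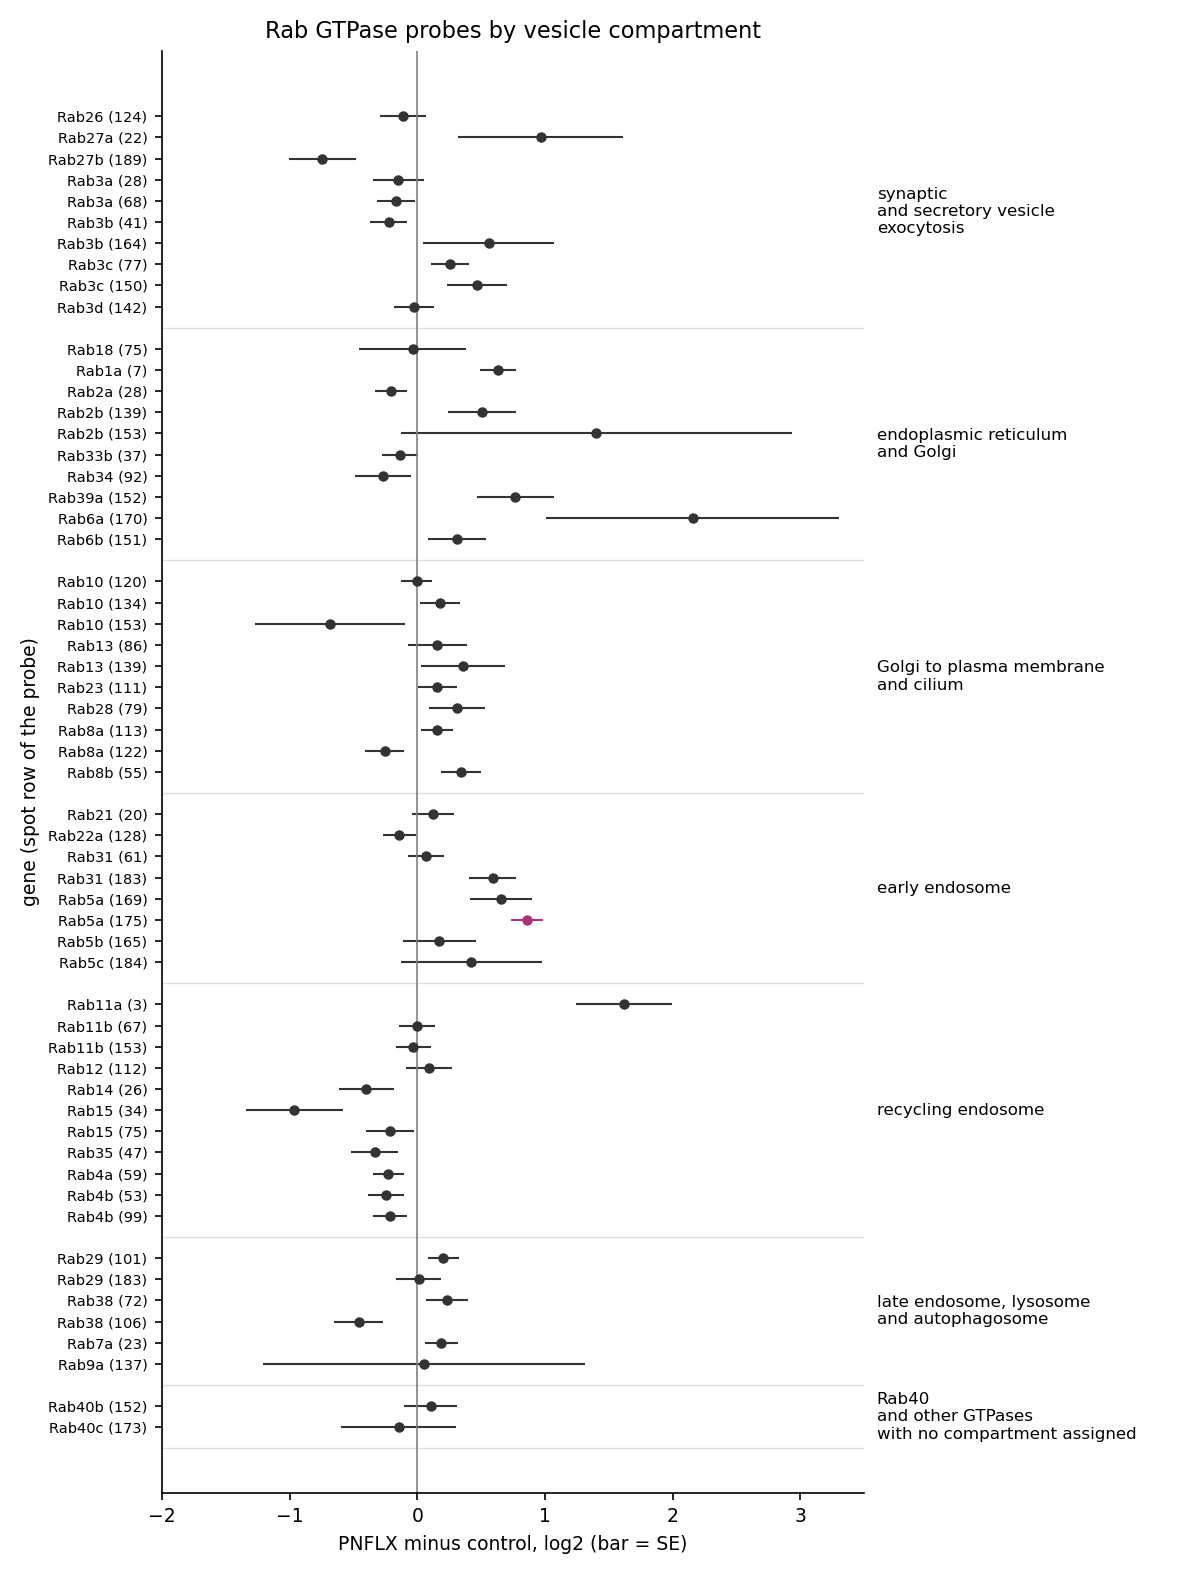
PNFLX minus control difference (log2, horizontal axis) of each of the 57 tested Rab GTPase probes, with the spot row of the probe in parentheses and bars for the moderated standard error, grouped by vesicle compartment. Rab5a at spot row 175 (purple) is the 1 probe past an adjusted p of 0.05, and the probes with the widest bars (Rab2b at row 153, Rab9a, Rab6a) each had their lowest value in control 1.

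The early endosome Rabs included the call. Rab5a drives the fusion of endocytic vesicles with early endosomes and their homotypic fusion, and its messenger RNA was read by the sequence shown above at 2 spots, in spot rows 175 and 169. At row 175 the control samples were at -3.09, -3.25, -3.22 and -3.07 and the PNFLX samples at -2.45, -2.16, -2.37 and -2.23. Every PNFLX sample was above every control sample. The difference was 0.86 ± 0.13 (SE, n = 4 per group), or 1.81-fold, with a limma adjusted p of 0.0277.

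At row 169 the same sequence read -3.24, -3.35, -3.38 and -2.43 in the controls and -2.64, -2.32, -2.15 and -2.66 in PNFLX. Control 4 lay among the PNFLX samples there, and the other controls lay below all of them. The difference was 0.66 ± 0.24 (SE, n = 4 per group), with an adjusted p of 0.320. Between the spots the log2 differences differed by 0.20 (exact two-sided permutation p = 0.429 over 70 splits of the 8 arrays, adjusted over 16 probe pairs 0.686).

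The Rab5a call at row 175 was made in 9 of 21 settings. It was kept with quantile normalization, without scaling between arrays, with flagged spots kept, with probes well above background on all 8 arrays, with the brightest probe of each gene and in the authors' log2 values, with adjusted p between 0.00977 and 0.0465. The Rab5a difference was -0.37 with normexp background correction, close to the median of all probes there, 0.43 after the medians of each array's spot rows and columns were subtracted (adjusted p = 0.450), and 0.36 in the signal before the scanner software's multiplicative detrending (adjusted p = 0.273). The difference stayed at 0.86 and the adjusted p alone moved past the threshold with a replicate block (adjusted p = 0.196), when the first and last 5 spot rows were left out, which left 0 of 11056 probes of the array past it (adjusted p = 0.0952; 1261 of those probes had an unadjusted p under 0.05), and without a filter on dim probes (adjusted p = 0.0579). Leaving out 1 array ended the call in 6 of 8 cases: without control 1, 2, 3 or 4 the adjusted p was 0.0697, 0.0813, 0.108 and 0.0945, and without PNFLX 2 or 4 it was 0.0921 and 0.0512, with differences between 0.81 and 0.91 in all 8 cases.

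The other early endosome probes were those of Rab5b and Rab5c, the paralogs of Rab5a, of Rab21 and Rab22a, which act in sorting at early endosomes, and of Rab31, a Rab22a relative that also serves traffic from the trans-Golgi network. Rab31 had probes of different sequence. At row 183 the controls were at -3.52, -3.79, -3.82 and -3.56 and PNFLX at -2.67, -3.44, -3.09 and -3.12. The groups did not overlap, with a difference of 0.59 ± 0.18 (SE, n = 4 per group, adjusted p = 0.242).

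At row 61, a position 76622 bases away in rn4 from the nearer end of the first probe, the Rab31 controls were at 3.62, 3.18, 3.34 and 3.44 and PNFLX at 3.41, 3.32, 3.55 and 3.56. The groups overlapped and the difference was 0.07 ± 0.14 (SE, adjusted p = 0.862). The probes' differences differed by 0.52 (exact permutation p = 0.0286, the smallest that 4 against 4 allows; adjusted over 16 pairs p = 0.152). Their gap turned with the setting, being 0.21 after row and column medians were subtracted, -0.18 before detrending, where the row 183 probe was at -0.19, and -1.05 with normexp correction.

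Among the remaining early endosome probes Rab5b was at 0.17, Rab5c at 0.42 with an SE of 0.55, Rab21 at 0.12 and Rab22a at -0.14. In all, 7 of the 8 early endosome probes were higher in PNFLX and 1 was lower, with a median of 0.30. The same 8 probes gave 2 higher with normexp correction and 3 higher before detrending, so the sign of the group was not shared by the settings. Of the 8, 4 lay in the last 20 spot rows or, for Rab21, in the first 20.

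**Figure D2:**
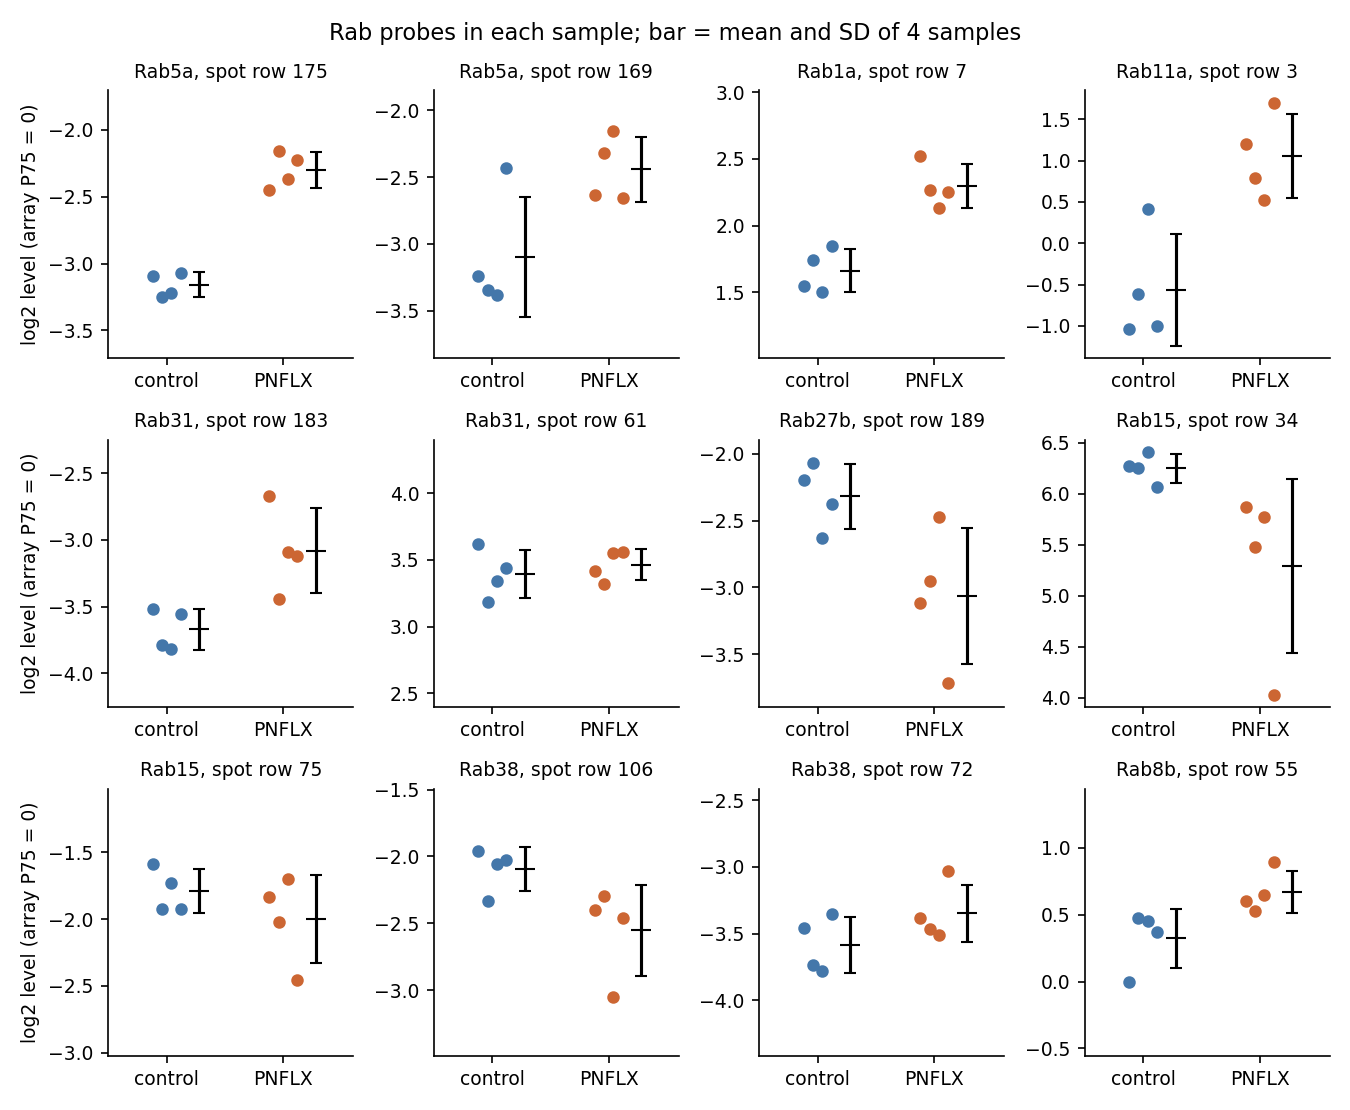
Level of 12 Rab probes in each sample (log2 relative to the array's 75th percentile; each panel has its own range), with control samples in blue, PNFLX samples in orange, and the mean and SD of 4 samples as a black bar. Rab5a at row 175, Rab1a, Rab11a, Rab31 at row 183, Rab15 at row 34 and Rab8b show groups that do not overlap, while the second probes of Rab5a, Rab31 and Rab15 show overlap.

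Among the Rabs of the endoplasmic reticulum and Golgi no probe passed the threshold, and the probes of smallest p were those of Rab1a and Rab39a. Rab1a governs traffic from the endoplasmic reticulum to the Golgi. Its levels were 1.55, 1.74, 1.504 and 1.85 in the controls and 2.52, 2.27, 2.13 and 2.25 in PNFLX. All PNFLX samples were higher, by 0.63 ± 0.14 (SE, n = 4 per group), which was 1.55-fold with an adjusted p of 0.107. The probe lay in spot row 7. The adjusted p was 0.0448 without scaling between arrays and 0.00377 before detrending, where the difference was 1.07 and where the median of all probes in rows 6 to 20 was 0.50. After row and column medians were subtracted it was 0.37 (adjusted p = 0.593). The probe passed in 2 of 21 settings, without scaling and before detrending.

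Rab39a, a Golgi Rab also placed on late endosomes, was dim, being well above background on 2 of 4 control and 4 of 4 PNFLX arrays. The controls were at -5.84, -6.11, -6.31 and -5.77 and PNFLX at -5.83, -5.48, -4.395 and -5.25. The groups overlapped through PNFLX 1, and the difference was 0.77 ± 0.30 (SE, adjusted p = 0.348). It was 0.49 without PNFLX 3, 0.37 before detrending, 1.17 after row and column medians were subtracted and -0.83 with normexp correction. Signals before detrending had a floor on each array, the lowest value of a spot well above background. Control 3 was at -5.19 there, so the 0.37 does not show the detrending alone.

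Rab2b, which like Rab2a works between the endoplasmic reticulum and the Golgi, had probes of different sequence. At row 139 the controls were at 2.61, 2.47, 2.61 and 1.57 and PNFLX at 2.66, 2.79, 2.59 and 3.24. Control 4 was the low sample, and the difference was 0.51 ± 0.27 (SE, adjusted p = 0.479), or 0.26 without control 4.

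At row 153 Rab2b read -5.69 in control 1 and -1.30 in PNFLX 1, while the other controls were at 0.89, 1.03 and 1.04 and the other PNFLX samples at 1.31, 1.38 and 1.49. The difference of 1.40 had an SE of 1.53. Without control 1 it was -0.27, with the low PNFLX 1 value still in its group. The other PNFLX samples all lay above the other controls, so the size and sign of the difference turned on these 1 low value per group. Rab6a, which organises retrograde traffic at the Golgi, gave the widest difference of the family, 2.16 ± 1.15 (SE, adjusted p = 0.483). Its controls were at -5.94, -0.72, -3.58 and -0.16 and PNFLX at -0.67, -0.58, -0.12 and -0.39, so the low values were in control 1 and control 3 and the remaining 6 samples lay between -0.72 and -0.12.

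The other Golgi and endoplasmic reticulum probes had smaller differences. Rab6b, a form enriched in neurons, was at 0.31, and Rab2a at -0.21. Rab33b, linked to Golgi traffic and autophagy, was at -0.14, Rab34 at -0.27 and Rab18, found on the endoplasmic reticulum and lipid droplets, at -0.04. The 10 probes had a median of 0.41, with 6 higher and 4 lower (5 and 5 with normexp correction, 10 and 0 without scaling). Against the median of all probes 6 lay above and 4 below in each of these settings.

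The recycling endosome Rabs were more often lower than higher in PNFLX, with no probe past the threshold. Of 11 tested probes 9 lay below 0 and 2 above, and their median was -0.22. The count against 0 depended on the scale. Leaving out the scaling between arrays raised every probe with all 8 values by the same 0.30, and 8 of the 11 were then higher. Set against the median of all probes, 7 of the 11 lay below it both in the main values and without scaling. With normexp correction 8 of the 11 lay above that median, although 9 were below 0.

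Rab4a and Rab4b, which serve the fast return of receptors to the plasma membrane, had differences of nearly one size. Rab4a was at 0.19, 0.17, 0.20 and 0.17 in the controls and at 0.04, 0.02, 0.02 and -0.26 in PNFLX. No PNFLX sample reached a control sample, and the difference was -0.23 ± 0.12 (SE, n = 4 per group, adjusted p = 0.486). The Rab4b sequence, printed at rows 53 and 99, gave -0.25 ± 0.14 and -0.22 ± 0.13 (SE, adjusted p = 0.511 and 0.540). PNFLX 4 was the lowest sample on all 3 probes.

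Rab11a, the central Rab of the recycling endosome and of receptor delivery to dendritic spines, stood opposite. Its controls were at -1.04, -0.62, 0.41 and -1.003 and PNFLX at 1.20, 0.79, 0.53 and 1.70. All PNFLX samples were higher, with a difference of 1.62 ± 0.38 (SE, n = 4 per group), 3.07-fold, and an adjusted p of 0.115. The probe lay in spot row 3, where the 267 probes of rows 1 to 5 had a median difference of 0.75, and before detrending its adjusted p was 0.0148 with a difference of 2.22 while those rows had a median of 1.36. After row and column medians were subtracted it was 0.62 (adjusted p = 0.620).

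Its close relative Rab11b, read by the same sequence at rows 67 and 153, was at -0.00 ± 0.14 and -0.03 ± 0.14 (SE, adjusted p = 0.992 and 0.939). Rab15, a Rab of endosomes enriched in neurons, had probes of different sequence. At row 34 the controls were at 6.27, 6.26, 6.41 and 6.07 and PNFLX at 5.87, 5.48, 5.78 and 4.03. The groups did not overlap, with PNFLX 4 the lowest, and the difference was -0.96 ± 0.38 (SE, adjusted p = 0.358); the spot was saturated on 2 control arrays and 1 PNFLX array. The difference was -0.54 without PNFLX 4 and -0.42 with normexp correction.

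At row 75 Rab15 was at -1.59, -1.93, -1.73 and -1.92 in the controls and -1.83, -2.02, -1.70 and -2.46 in PNFLX, a difference of -0.21 ± 0.19 (SE, adjusted p = 0.667). The Rab15 probes' differences differed by 0.75 (exact permutation p = 0.0286, adjusted 0.152). This gap was between 0.49 and 0.89 with an array left out and -0.16 with normexp correction. The row 34 spot was saturated on 3 arrays, and the part of saturation in the gap was not tested. Rab14 was at -0.40, Rab35, which acts in fast recycling and neurite growth, at -0.33, and Rab12 at 0.09.

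The synaptic and secretory vesicle Rabs showed no shared direction and no call. Rab3a, the Rab of synaptic vesicles that limits and primes transmitter release, was read by the sequence shown above at rows 28 and 68. At row 68 the controls were at 1.81, 1.75, 1.63 and 1.59 and PNFLX at 1.84, 1.53, 1.42 and 1.32, and the difference was -0.17 ± 0.15 (SE, n = 4 per group, adjusted p = 0.667). At row 28 the controls were at 2.06, 1.94, 1.25 and 1.53 and PNFLX at 1.66, 1.65, 1.53 and 1.34, and the difference was -0.15 ± 0.20 (SE, adjusted p = 0.780). The groups overlapped at both spots, and the spots lay 0.02 apart in their difference in the main values. They lay apart in sign before detrending, at 0.53 for row 28 and -0.28 for row 68. Both turned positive without scaling (0.15 for row 28 and 0.13 for row 68) and with normexp correction (0.72 for row 28 and 0.01 for row 68). The median of all probes was 0.26 and -0.38 in these settings.

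Rab3b, whose first probe is shown above, was at 0.70, 0.46, 0.59 and 0.39 in the controls and 0.45, 0.20, 0.49 and 0.11 in PNFLX at row 41, a difference of -0.22 ± 0.14 (SE, adjusted p = 0.560). Its other probe at row 164 read -1.04, -1.36, -0.94 and -3.44 in the controls and -1.23, -1.22, -0.84 and -1.25 in PNFLX. Control 4 was the single low sample, and the difference of 0.56 ± 0.52 (SE, adjusted p = 0.679) became -0.02 without it.

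Rab3c, a further synaptic vesicle form, had 1 sequence at rows 150 and 77. At row 150 the controls were at -2.23, -1.53, -1.20 and -1.39 and PNFLX at -1.43, -1.10, -0.96 and -0.97. At row 77 the controls were at -1.13, -1.63, -1.29 and -1.37 and PNFLX at -1.21, -1.17, -1.13 and -0.90. The differences were 0.47 ± 0.24 and 0.25 ± 0.15 (SE, adjusted p = 0.462 and 0.521), with overlap at both spots. Without control 1 the row 150 difference was 0.26. Rab3d, known best from exocrine granules, was at -0.53, -0.74, -0.79 and -0.74 in the controls and -0.89, -0.87, -0.81 and -0.35 in PNFLX, a difference of -0.03 ± 0.16 (SE, adjusted p = 0.957).

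The Rab27 forms, which dock secretory granules and exosome-bearing compartments, had opposite signs in the main values. With normexp correction Rab27a was at -0.40, near the median of all probes there (-0.38), and Rab27b at -1.47. Rab27a was at -6.17, -3.23, -2.86 and -4.31 in the controls and -2.96, -3.38, -3.36 and -3.00 in PNFLX, with control 1 the lowest. The difference was 0.97 ± 0.65 (SE, adjusted p = 0.568), and the probe was well above background on 3 of 4 control arrays. Without control 1 the difference was 0.29.

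Rab27b was at -2.20, -2.07, -2.63 and -2.37 in the controls and -3.12, -2.95, -2.48 and -3.71 in PNFLX. Only PNFLX 3 lay within the control range, and the difference was -0.75 ± 0.26 (SE, n = 4 per group, adjusted p = 0.305). The probe was in row 189, where the 277 probes of the last 5 rows had a median difference of -0.79. Before detrending Rab27b was at -1.74 (adjusted p = 0.0271) and those rows at -1.43. Rab26, placed on synaptic vesicles bound for autophagy, was at -0.11. Of the 10 synaptic and secretory probes 4 were higher and 6 lower (9 and 1 without scaling, 6 and 4 before detrending), with a median of -0.07. Against the median of all probes 5 lay above and 5 below in the main values and without scaling, which moved the probes and that median alike. The count was 8 above and 2 below with normexp correction, and 6 above and 4 below before detrending.

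The Rabs between the Golgi, the plasma membrane and the cilium had small differences and no call. Rab8b, which like Rab8a carries cargo to the plasma membrane and the primary cilium, was at -0.00, 0.47, 0.45 and 0.37 in the controls and 0.61, 0.53, 0.65 and 0.89 in PNFLX. All PNFLX samples were higher, by 0.34 ± 0.16 (SE, n = 4 per group, adjusted p = 0.420). The Rab8a probes had opposite signs, 0.15 at row 113 and -0.26 at row 122, and their differences differed by 0.41 (exact permutation p = 0.0857, adjusted 0.274).

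Rab10, which inserts membrane in growing axons, had 3 probes. The sequence at row 120 varied little, from -1.15 to -0.87 over the 8 arrays, with a difference of -0.00 ± 0.12 (SE, adjusted p = 0.994). The same sequence at row 153 gave -0.68 ± 0.59 (SE), where PNFLX 1 was at -3.77 and the other 7 arrays lay between -1.69 and -0.83. A different sequence at row 134 gave 0.18 ± 0.16 (SE). Rab13, known from junctions and neurite growth, was at 0.16 and 0.36 at its spots, Rab23, a regulator of Hedgehog signalling, at 0.16, and Rab28, a ciliary form, at 0.31. Of the 10 probes 7 were higher and 3 lower, with a median of 0.16 (4 and 6 with normexp correction). Against the median of all probes 8 lay above and 2 below in both settings.

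Of the late endosome and lysosome Rabs, Rab38, best known from lysosome-related organelles, had probes of different sequence and opposite sign. At row 106 the controls were at -1.96, -2.33, -2.06 and -2.02 and PNFLX at -2.40, -2.29, -3.05 and -2.46, a difference of -0.46 ± 0.19 (SE, adjusted p = 0.380). At row 72 the controls were at -3.46, -3.74, -3.78 and -3.36 and PNFLX at -3.39, -3.47, -3.51 and -3.03, a difference of 0.24 ± 0.17 (SE, adjusted p = 0.585). The groups overlapped on both probes. The difference between them was 0.69 (exact permutation p = 0.0286, adjusted 0.152), and the probes lay 80109 bases apart in rn4.

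Rab7a, the Rab of late endosomes and lysosome fusion, was at 0.19 ± 0.13 (SE, adjusted p = 0.582). Rab29, which acts at the Golgi and lysosomes, was read by 1 sequence at rows 101 and 183. At row 101 the controls lay between 2.26 and 2.30 and PNFLX between 2.34 and 2.60, without overlap, with a difference of 0.20 ± 0.12 (SE, adjusted p = 0.515). At row 183, where control 1 and PNFLX 1 were dropped for outlier flags, the difference was 0.01 ± 0.17 (SE, n = 3 per group). Rab9a, of traffic from late endosomes to the Golgi, was at 0.05 with an SE of 1.26; its control 1 and PNFLX 1 were both at -3.86 and PNFLX 4 was dropped for an outlier flag. Rab40b and Rab40c, whose proteins are parts of ubiquitin ligases, were at 0.10 and -0.15.

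Spots of one sequence were compared with probes of different sequence, with no test of the contrast. In the 8 Rab GTPase pairs with 1 sequence at a pair of spots that were tested, both spots had the same sign in all 8 in the main values. For Rab11b, Rab10 and Rab29 at least 1 of the spots was near 0. The log2 differences within a pair were a median of 0.20 apart, with a range from 0.02 for Rab3a to 0.68 for Rab10. Over the 1488 such pairs on the array 63.0% had the same sign, and the median gap was 0.22. The count for the Rab pairs was 5 of 8 with quantile normalization or after row and column medians were subtracted, 6 of 8 with normexp correction or before detrending, and 7 of 8 without scaling, where the share of all pairs was between 57.4% and 82.7%. In the 7 Rab genes with probes of different sequence 3 had the same sign, with a median gap of 0.69 (433 genes of the array gave 51.7% and 0.37). None of the 16 comparisons between probes of a gene passed after adjustment, the smallest adjusted exact p being 0.152 for Rab15, Rab31 and Rab38, and 3 had an unadjusted p under 0.05. The plot of one probe against the other shows the pairs.

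**Figure D3:**
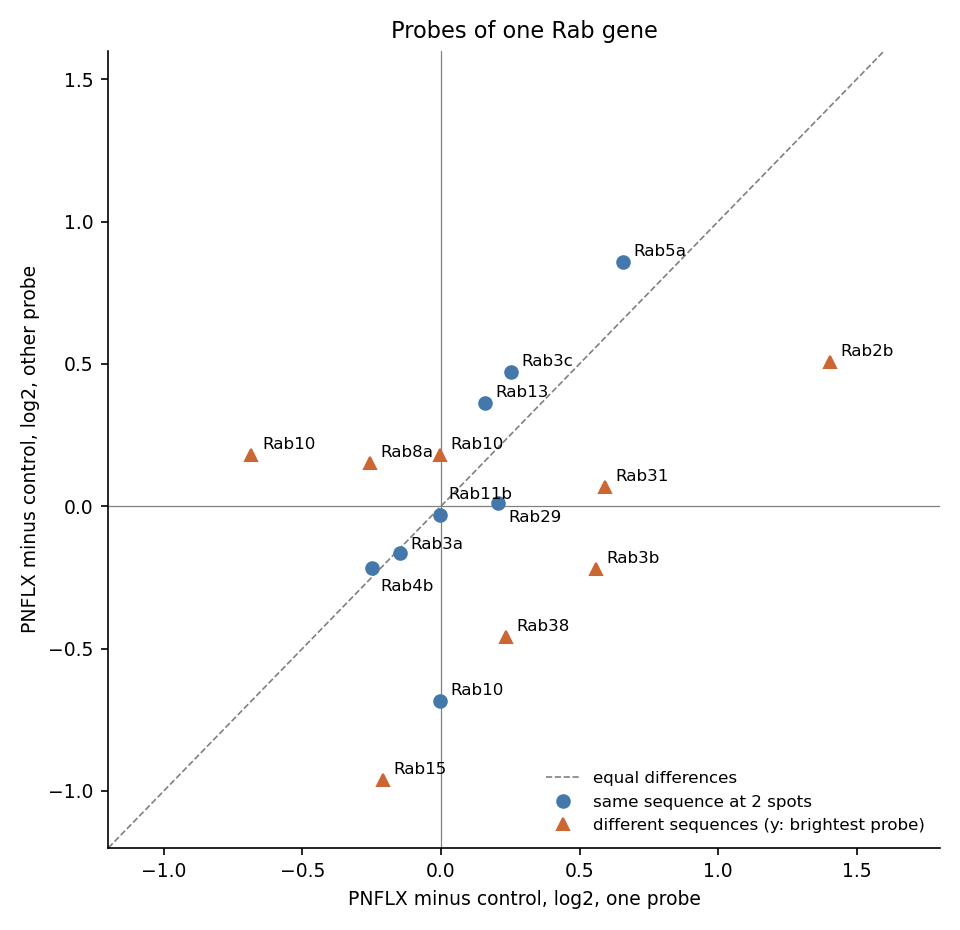
PNFLX minus control log2 difference of one probe of a Rab gene against that of another probe of the gene, with blue circles for 1 sequence at 2 spots and orange triangles for different sequences (the brightest probe on the vertical axis). The circles lie near the dashed line of equal differences except Rab10, and the triangles of Rab38, Rab3b, Rab8a and Rab10 lie in quadrants of opposite sign.

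Position on the array moved with these differences. The 5 Rab GTPase probes of smallest p (Rab5a at row 175, Rab1a, Rab11a, Rab31 at row 183 and Rab27b) all lay in the first or last 20 of the 192 spot rows, which held 9 of the 57 tested Rab probes (15.8%) and 19.7% of all tested probes. In these outer rows 5 of the 9 Rab probes had an unadjusted p under 0.05 (55.6%, against 24.8% of all probes there). In the inner rows, 21 to 172, none of the 48 Rab probes passed an adjusted p of 0.05 and 4 had an unadjusted p under 0.05 (8.33%, against 9.44% of the 9310 probes there), with 25 of 48 higher and a median of 0.06. Over the array 69 of the 78 probes called lay in the outer rows. The Rab probes in the outer rows had a median absolute difference of 0.59 and those in the inner rows 0.22, beside 0.41 and 0.20 for all probes.

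The deposited processed signal is the background-subtracted signal divided by a fitted surface (multiplicative detrending), and this surface differed between the groups by row. For Rab5a at row 175 the divisor was 0.966 to 1.13 on the control arrays and 0.632 to 0.801 on the PNFLX arrays, which is -0.49 on the log2 scale between the group means. For Rab11a the divisor was 0.509 to 0.631 in the controls and 0.654 to 0.996 in PNFLX. For Rab27b it was 0.859 to 1.22 in the controls and 0.367 to 0.623 in PNFLX. All probes together had median differences of 0.19 in rows 173 to 187 with the processed signal and -0.39 before detrending. The part of the spot position in the Rab results was not tested.

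**Figure D4:**
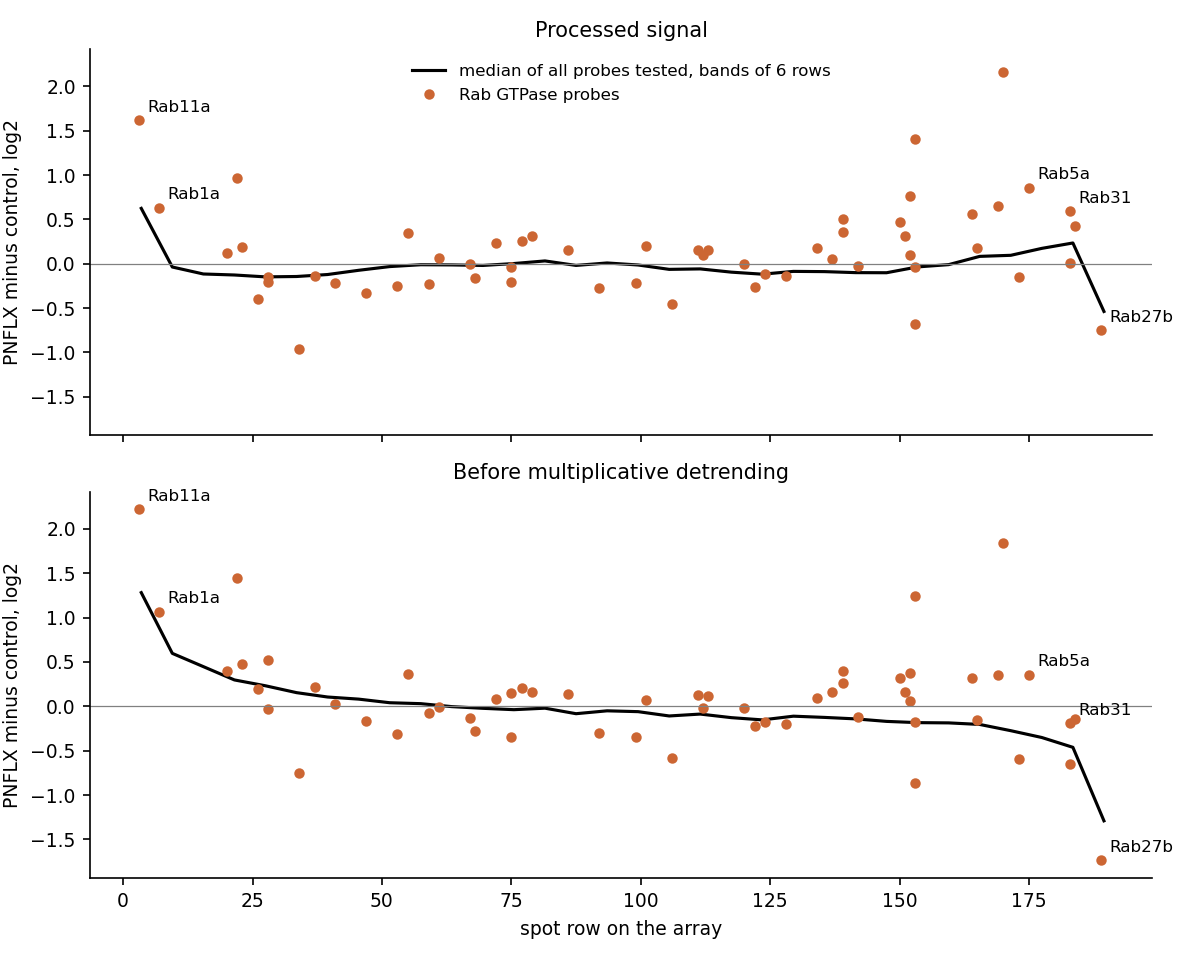
PNFLX minus control log2 difference of the 57 Rab GTPase probes (orange points) and the median of all probes tested in bands of 6 spot rows (black line) against the spot row, in the processed signal (top) and before multiplicative detrending (bottom). The black line leaves 0 toward both ends, more so before detrending, and the 5 named probes sit at the ends.

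The genes named after a Rab that encode no GTPase were all lower in PNFLX in the main values, with none past the threshold. Rab3ip and Rab3il1 encode exchange factors for Rab8, the file's Rab6ip1 and Rab6ip2 are now called Dennd5a and Erc1, and its Rab2l is now Ralgdsl2. The Rab3ip sequence gave -0.44 at row 114 and -0.27 at row 149, Rab3il1 -0.35, Erc1 -0.19, Ralgdsl2 -0.15 and Dennd5a -0.04. The 6 probes had a median of -0.23. In the main values 0 of the 6 lay above the median of all probes. Leaving out the scaling moved the probes and that median alike, so this count stayed at 0 while 4 of the 6 were then higher. Above that median lay 3 of the 6 with normexp correction and 2 before detrending. With quantile normalization or after row and column medians were subtracted it was 1 of the 6.

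Regulators and effectors of the Rabs, taken from lists by role, had 0 of 76 tested probes past the threshold with limma, against 0.672% of all probes. At an unadjusted p under 0.05 there were 7 (9.21%, against 12.5% of all probes). In sign 25 were higher and 51 lower (32.9% higher, against 45.5% of all probes). These lists hold Rab3ip, Rab3il1, Dennd5a and Erc1 again. The counts against 0 turned with the scale, since without scaling 35 of the 42 effector probes were higher. Against the median of all probes 18 effector probes lay above and 24 below in the main values and without scaling, which moved the probes and that median alike. Both with normexp correction and before detrending 23 lay above that median and 19 below. Before detrending 20 effector probes were higher and 22 lower. Among the GDP dissociation inhibitors, escort proteins and prenyltransferase subunits 2 of 10 probes were higher and 8 lower, with a median of -0.11. The counts were 5 and 5 before detrending and 6 and 4 with normexp correction. Gdi2, which extracts Rabs from membranes, was at 0.74 ± 0.19 (SE, adjusted p = 0.159) in row 175 and at -0.15 and -0.24 in rows 82 and 157. Rabggta, a subunit of the Rab prenyltransferase, was at -0.36 ± 0.13 (SE, adjusted p = 0.307) in row 15. After row and column medians were subtracted, Gdi2 in row 175 was at 0.27 and Rabggta at -0.21. Rabac1, a Rab-binding membrane protein, was at -0.15.

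Of the exchange factors 4 of 14 probes were higher and 10 lower (2 and 12 with normexp correction, 6 and 8 before detrending). Gapvd1, an exchange factor of Rab5, was at -0.54 ± 0.22 (SE, adjusted p = 0.371). Of the GTPase-activating proteins 4 of 10 were higher and 6 lower (1 and 9 with normexp correction, 4 and 6 before detrending). Usp6nl, which acts on Rab5, was at -0.51 ± 0.14 (SE, adjusted p = 0.178) without overlap of the groups, Tbc1d15 at 0.33, Tbc1d9 at -0.39 and Tbc1d10c at -1.36 with an SE of 0.76. Of the effectors 15 of 42 were higher and 27 lower. Gripap1, an effector of Rab4 on recycling endosomes, was at -0.59 ± 0.17 (SE, adjusted p = 0.213) in row 18 and at -0.28 in row 7. The row 18 value was -0.30 after row and column medians were subtracted. Rims2, a Rab3 effector of the active zone, was at -0.65 ± 0.24 (SE, adjusted p = 0.312), Rilp, a Rab7 effector, at -0.32 ± 0.12 (SE, adjusted p = 0.332) and Sytl5 at -0.41.

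Markers of other cell types that the tissue can hold gave no probe past the threshold. In these whole hippocampi fewer cells of a type and less RNA per cell cannot be told apart. Markers of hippocampal principal neurons passed the filter for 11 of 12 measured genes and were even in sign, with 7 probes higher and 6 lower. Markers of oligodendrocytes were lower for 12 of 13 probes (median -0.27, summed level 99.6 to 137 in controls and 81.9 to 116 in PNFLX), but 10 of 13 were higher with normexp correction and 8 of 13 without scaling. Against the median of all probes 3 lay above and 10 below in the main values and without scaling, which moved the probes and that median alike. With normexp correction 12 lay above that median and 1 below. Markers of meninges and fibroblasts were higher for 10 of 13 (median 0.25, summed level 22.5 to 28.6 in controls and 26.5 to 57.0 in PNFLX, the highest in PNFLX 1), and those of blood for 6 of 6 (summed level 1.24 to 1.42 and 1.15 to 2.62). With normexp 0 of the 6 blood probes were higher, but 4 of the 6 lay above the median of all probes, which was -0.38. The choroid plexus marker Ttr was at 5.07 in control 4 and between -4.10 and 1.14 in the other samples, and Clic6, Kl, Prlr and Slc4a5 did not pass the filter. The part of these in the Rab values was not tested.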

How the data were processed

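Single-colour array intensity values (processed signal, background-subtracted signal, mean brightness, local background) and the detrending divisor, a ratio, were made with Agilent Feature Extraction 10.5.1.1, per the file headers. The authors also deposited log2 values, which matched the values used here after centring each probe (within 0.00241). For the main values the processed signal was divided by its 75th percentile over 15207 probes on the same array and put on the log2 scale; 521 spots with outlier flags were left out, and the 11600 probes that stood well above background on 4 or more of 8 arrays were fitted with limma 3.58.1 in R 4.3.3 (group only, two-sided, Benjamini-Hochberg adjustment over 11600, threshold 0.05); SE is the moderated standard error. Between 70.5% and 77.9% of probes were well above background per array, and the number of arrays limits the precision. Arrays correlated at 0.948 to 0.983. Nothing says that samples are separate animals, so p-values measure the spread between these samples.

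Of the 65 probes 45 were named by accession and 20 by symbol or synonym through a RefSeq table (GRCr8, names only). Differences between a probe and its gene's brightest probe were compared with an exact permutation test. Values in every sample are given for the 12 Rab GTPase probes of smallest p, for other probes of their genes, and for all Rab3 and Rab27 probes; those of Rab6a, Rab4a and single arrays of Rab10 and Rab9a were added after their values were seen. Up to 4 members of smallest p are named per pathway list. The members and lists were chosen with earlier results of these data known. Alternatives covered background correction, scaling, filter, flags, spot position, probe choice, a replicate block, the authors' table, each array left out and the signal before detrending. The normexp setting used the mean brightness and local background with an offset of 50, and so had no multiplicative detrending. Signals before detrending were raised, where lower, to the lowest value of a spot well above background on the same array. The fit was tested on simulated data.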

Additional observations from a re-analysis of the deposited data

Results flagged for a closer look

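In 7 of 46 groups of 4 samples over the 23 probes described sample by sample, 1 sample stood apart from the other 3; chance gives this in about 1 in 20 groups. Rab2b at row 153 had control 1 at -5.69 and PNFLX 1 at -1.30, each below the other samples of its group. Rab2b at row 139 had control 4 low at 1.57, and Rab3b at row 164 had control 4 low at -3.44 and PNFLX 3 high at -0.84. Rab5a at row 169 had control 4 high at -2.43, and Rab3d at row 142 had PNFLX 4 high at -0.35. In the Rab GTPase probes with all 8 values, PNFLX 4 was the lowest sample of 16 and the highest of 13 of 55 (29.1% and 23.6%, against 27.6% and 22.2% of all probes).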

How the results depend on the processing

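Of 57 Rab GTPase probes 1 was called in the main values. The count was 0 with normexp, without a filter on dim probes, after row and column medians were subtracted and without the end rows, 2 without scaling (Rab1a, Rab5a), and 0 to 1 with an array left out. Before detrending, an alternative chosen after seeing the data, it was 3 (Rab11a, Rab1a, Rab27b). All probes called numbered 78, and 50, 143, 46, 26, 0 and 438 for normexp, no scaling, no filter, row and column medians, no end rows and before detrending, 47 with probes well above background on all 8 arrays, and 33 to 104 with an array left out. The count of Rab probes higher in PNFLX was 21 with normexp and 51 without scaling, and their median -0.15, 0.39 and, after row and column medians, 0.034. The median of all probes in these settings was -0.38, 0.26 and -0.055.

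Same-numbered samples deviated together weakly (correlations 0.01, 0.08, 0.09 and 0.02), and not every sample correlated best with its own number. The 0.08 and 0.09 were the largest correlations between a control and a PNFLX sample. Same-numbered arrays had near shares of probes well above background (76.0% and 74.9%, 76.8% and 76.3%, 70.5% and 72.7%, 77.9% and 77.4%). The labels name no pairing, and what arrays of one number share was not tested beyond the replicate block. With the replicate block 13 probes were called, 0 of them Rab probes, and Rab5a at row 175 had an adjusted p of 0.196.

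Signs turned with normexp for Rab5a (rows 175 and 169: -0.37 and -0.40), Rab31 (row 183: -0.75), Rab39a (-0.83), Rab3c (row 150: -0.10), Rab38 (row 72: -0.62), Rab2b (row 153: -0.011), Rab27a (-0.40), Rab3a (rows 28 and 68: 0.72 and 0.010) and Rab3b (rows 41 and 164: 0.12 and -0.014). They turned without scaling for Rab15 (row 75: 0.086), Rab3a (0.15 and 0.13), Rab3b (row 41: 0.074) and Rab3d (0.27), after row and column medians for Rab3d (0.12), and before detrending for Rab31 (rows 183 and 61: -0.19 and -0.013), Rab3a (row 28: 0.53) and Rab3b (row 41: 0.027). The median of all probes was -0.38 with normexp and 0.26 without scaling. Of the probes that turned negative with normexp, Rab5a at row 175, Rab3c, Rab2b and Rab3b at row 164 lay above that median. Rab5a at row 169, Rab31, Rab39a, Rab38 and Rab27a lay below it. Without scaling only Rab3d, of the turned probes, lay above the median of all probes. With an array left out Rab31 at row 61 ran from -0.0034 to 0.14, Rab2b at row 153 from -0.27 to 2.07, Rab3d from -0.15 to 0.030 and Rab3b at row 164 from -0.023 to 0.81.

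Between probes of a gene, the difference turned with normexp for Rab15 (-0.16), Rab2b (-0.71), Rab31 (-1.05), Rab3b (-0.13), Rab3c (-0.11) and Rab4b (0.016), and after row and column medians for Rab11b (-0.11) and Rab5a (0.24), and before detrending for Rab31 (-0.18) and Rab4b (0.031). With an array left out it ran from -0.87 to 1.72 for Rab2b, -0.073 to 0.33 for Rab3c, -0.069 to 0.10 for Rab11b, -0.10 to 0.11 for Rab3a, -0.26 to 0.069 for Rab3ip and -0.073 to 0.024 for Rab4b. Other than the position and detrending values given beside the results, the cause was not tested.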
